A study of Bos taurus with 106 samples.

Results

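The transcripts described here are those with the strongest signal in bovine liver relative to a mixture of other tissues on a cDNA array. They were picked by the measured values themselves. Each array carried liver in one dye and the mixture in the other, and the values were turned to log2 of liver over mixture, so that 0 is the array median and each unit is a doubling. Of 8208 array elements (spotted cDNA clones), 87 had a mean log2 ratio above 3 over the 16 samples of day -30 and day 28. Of these, 20 carried several gene symbols or none and 7 belonged to a list of 10 genes left out by the rule, which left 60 elements of 54 genes. Values of days -30 and 28 are therefore given as a description only, and tests are given only for the other days.

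Liver of 8 Holstein cows was sampled around calving, with days counted from parturition. During the 65-day dry period, 4 cows ate a moderate-energy diet of 1.60 Mcal/kg ad libitum, at about 120% of the NRC requirement, and 4 cows were given a restricted amount of it, at about 80% of that requirement. The samples were taken on days -65, -30, -14, 1, 14, 28 and 49. Cow-days numbered 53, with 3 ad libitum and 4 restricted cows on day -65, 2 ad libitum and 4 restricted cows on day 49, and 4 of each on every other day. The study asked how feeding before calving relates to hepatic transcript levels. Each cow-day was measured on 2 arrays with the dyes swapped, for 106 arrays in all, and its value is the mean of the pair. The mixture held no liver, so a high ratio sets liver only against the tissues in that mixture, and a ratio does not show how abundant a transcript is.

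Hepatocytes make most plasma proteins, take up and export organic anions and bile acids, and oxidise fatty acids, aldehydes and drugs. The resident macrophages of liver, the Kupffer cells, line its sinusoids, clear particles from portal blood and are a main source of the complement subunit C1q. In dairy cows liver takes up large amounts of fatty acids around calving, when milk secretion begins. Of the hepatocyte markers listed for this work, 3 elements were on the array. The retinol carrier RBP4 and ASGR2, a subunit of the hepatocyte receptor for desialylated glycoproteins, were members at 6.40 and 4.23, while APOA1, the main apolipoprotein of HDL, was at 1.17. Of the 15 elements listed as macrophage markers, 8 were members, those of CD5L, CD14, C1QA, C1QB and C1QC. The elements of CD68, CD163, VSIG4, CD74, AIF1 and MSR1 were not. Some markers of hepatocytes and some of macrophages thus stood together among the members. In such bulk samples fewer cells of a type and less RNA per cell cannot be told apart.

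The members ranged from 3.01 to 7.93 on days -30 and 28, with 34 elements from 3 to 4, 14 from 4 to 5 and 12 above 5. The 12 above 5 were HAVCR1 at 7.93, UNC13D at 6.96, LOC616364 at 6.81, RBP4 at 6.40, TMT1B at 6.16, CD5L at 6.0, C1R at 5.95, C1S at 5.80, CP at 5.79, AOX1 at 5.65, LOC515150 at 5.56 and LOC338050 at 5.55. Close to the threshold, MSRA (3.01), ECI2 (3.02) and the second TST element (3.04) lay just inside it. IL6R (2.99), DNASE1L3 (2.97) and a second element of SLC29A1 (2.92) lay just outside. On the 37 cow-days of the other 5 days, which the rule did not use, all 60 elements stayed above 0 in every cow-day and 51 kept a mean above 3. The lowest of these values was 0.69, for the second CD14 element in ad libitum cow 7050 on day 14. The day with the lowest mean was day 1 for 38 elements, day -30 for 12, days 14 and 49 for 4 each and day -14 for 2. The highest mean fell on day -65 for 22 elements and on day 28 for 21.

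The member with the highest ratio was HAVCR1, a phosphatidylserine receptor known mainly from kidney and T cells. Its lowest, median and highest log2 ratios were 7.87, 8.17 and 8.83 on day -65, 7.58, 7.90 and 8.48 on day -30, 6.34, 7.17 and 7.77 on day -14, and 6.54, 6.90 and 7.35 on day 1. After calving they were 6.34, 7.04 and 7.86 on day 14, 7.26, 7.94 and 8.31 on day 28, and 7.59, 8.04 and 8.16 on day 49. HAVCR1 was thus lower from day -14 to day 14 than at either end, and no cow on day -14 or day 1 reached the lowest value of day -65. LOC616364 has no gene name in the annotation used here and lies between CCL3 and CCL14 in RefSeq gene order. Its medians were 7.43, 6.68, 5.0, 4.74, 5.37, 6.95 and 6.70 over the 7 days in order. CD5L, a protein secreted by macrophages, had medians of 6.47, 5.90, 5.09, 4.57, 5.03, 6.01 and 6.0.

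CP, the copper-binding plasma ferroxidase, had its highest median on day 1, with medians of 5.88, 5.69, 6.34, 7.13, 6.19, 5.96 and 5.69. On day 1 it ran from 5.70 to 7.37, against 4.99 to 6.60 on day -65. C1QB, a chain of the C1q recognition subunit, kept nearly level medians of 4.49, 3.83, 4.37, 4.03, 4.23, 4.38 and 3.99 at its first element. Transcripts chosen for the same high ratio thus differed in their course over the days. The plot of single cows by day shows them with their spread.

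**Figure D1:**
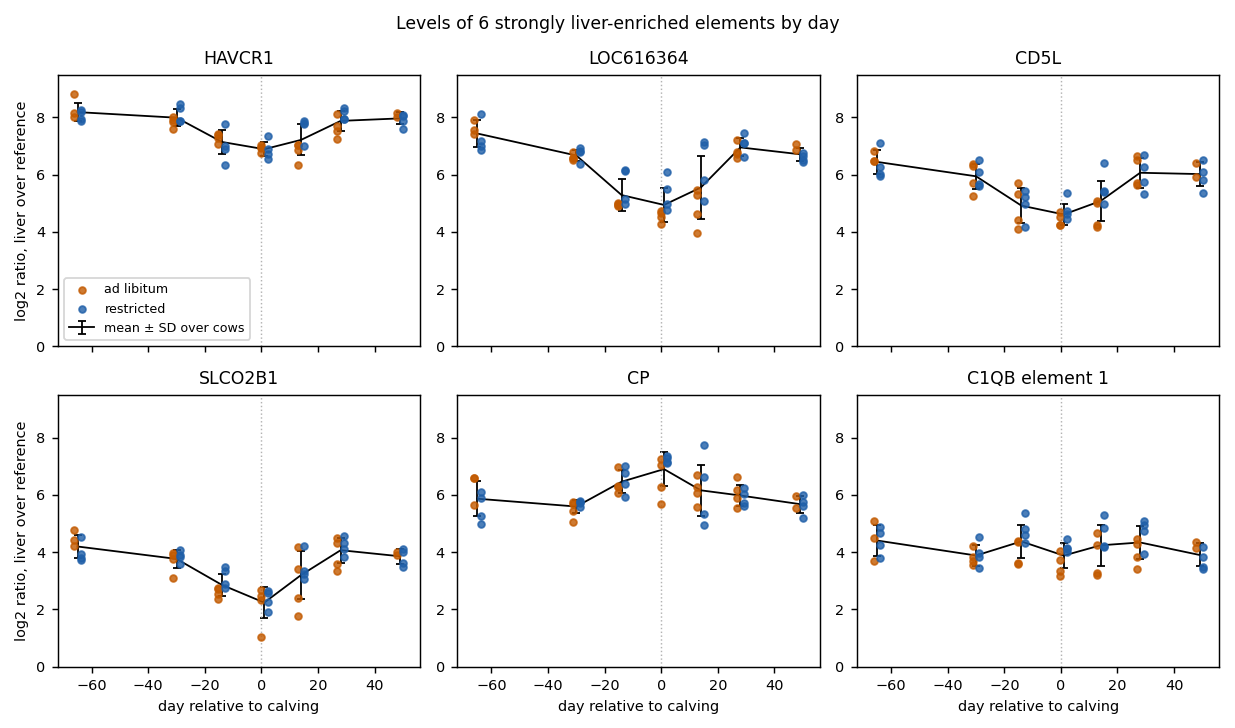
Log2 ratio of liver over the tissue mixture (vertical axis) by day relative to calving (horizontal axis) for HAVCR1, LOC616364, CD5L, SLCO2B1, CP and the first C1QB element, with a point per cow (orange ad libitum, blue restricted) and a line with bars for the mean ± SD of a day. HAVCR1, LOC616364, CD5L and SLCO2B1 are lowest from day -14 to day 14, CP is highest on day 1 with a median of 7.13, and C1QB stays near 4.

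The first comparison asked how the transcripts changed over the dry period, from its first day to day -14. Of the 60 elements, 24 of 22 genes fell on day -14 against day -65 and none rose, by limma with adjustment over 8061 tested elements at 0.05. Over all tested elements 31.9% passed, 14.1% lower and 17.8% higher. The members' median difference was -0.38, against 0.05 over all tested elements, and 47 members lay below 0. An unadjusted p under 0.05 was reached by 27 members. The share of all tested elements at that threshold is not given here. This count and the later unadjusted counts are therefore a description only. Of the 12 elements above 5 on days -30 and 28, 10 fell, and of the 48 from 3 to 5, 14 fell.

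These differences are means over both feeding levels, which did not share them equally. The median over the 60 members averaged 3.65 on day -14 and 4.10 on day -65 in ad libitum cows, but 4.04 on day -14 and 3.90 on day -65 in restricted cows. Over cows with both days, the members' median change was -0.63 in 3 ad libitum cows and 0.02 in 4 restricted cows. Of the 24 elements that fell, all 24 were lower in every one of the 3 ad libitum cows. Only 6 were lower in every one of the 4 restricted cows, and 11 were higher in 2 or more of them. Their own median change was -1.33 among ad libitum animals and -0.36 among restricted ones. The comparison of the feeding levels in this change is given further on.

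LOC616364 had the largest difference of the members. It had a lowest, median and highest log2 ratio of 4.89, 5.0 and 6.18 on day -14, against 6.85, 7.43 and 8.13 on day -65. The ranges did not overlap. It averaged 5.29 ± 0.54 on day -14 (SD, n = 8) and 7.44 ± 0.47 on day -65 (SD, n = 7), a difference of -2.18 with SE 0.24 and a limma adjusted p of 4.67e-09, lower in 7 of 7 cows. Ranges also lay apart for HAVCR1, CD5L, SLCO2B1 and SELENOP. How many of all tested elements had ranges apart was not counted. Ranges apart are therefore a description only, here and in the later comparisons of days and feeding levels.

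Among receptors, transporters and junction proteins, 3 of 9 elements fell, with a median difference of -0.39. HAVCR1 averaged 7.14 ± 0.43 on day -14 (SD, n = 8) and 8.19 ± 0.32 on day -65 (SD, n = 7), a log2 difference of -1.06 with SE 0.16 and limma adjusted p 3.35e-06. SLCO2B1, which takes up organic anions at the sinusoidal side, had 2.35, 2.76 and 3.50 on day -14, against 3.73, 4.21 and 4.76 on day -65. Its ranges lay apart, and it fell by 1.37 on the log2 scale (SE 0.25, limma adjusted p 4.4e-05) in 7 of 7 cows. The nucleoside transporter SLC29A1 fell by 0.54 (limma adjusted p 0.0143). The other 6 did not pass the test. ABCC2, which exports conjugates into bile, differed by -0.39 and the tight junction protein CLDN1 by -0.40. Differences at ASGR2 (-0.11), the glucagon receptor GCGR (-0.13), the iron exporter SLC40A1 (0.23) and the cell surface proteoglycan SDC2 (-0.15) were smaller still. ASGR2 ran from 3.48 to 4.60 on day -14, against 3.40 to 4.73 on day -65, so the pooled ranges nearly coincided. The feeding levels moved in opposite directions, however. Over cows with both days ASGR2 changed by -0.62 in ad libitum cows, lower in 3 of 3. In restricted cows it changed by 0.50, higher in 4 of 4.

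Of 11 elements for complement and pattern recognition, 5 fell, and they were CD5L, C1R, C1S and both CD14 elements. CD5L had 4.10, 5.09 and 5.71 on day -14, against 5.95, 6.47 and 7.10 on day -65. The groups did not overlap, and the difference was -1.54 with SE 0.25 and limma adjusted p 1.17e-05. The second element of CD14, the coreceptor for lipopolysaccharide, had 1.25, 1.93 and 3.13 on day -14, against 2.51, 3.27 and 4.09 on day -65. It overlapped between the days and fell by 1.32 (SE 0.23, limma adjusted p 2.63e-05), lower in 6 of 7 cows. The first CD14 element fell by 0.87 (adjusted p 0.00112). C1R had 5.01, 5.15 and 6.31 on day -14, against 5.88, 6.17 and 6.44 on day -65, and C1S fell as well, with 6 of 7 and 4 of 7 cows lower. Both are proteases of the C1 complex.

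The 5 C1q elements did not follow them. C1QB differed by -0.03 and 0.03 at its elements, C1QC by -0.29 and 0.24, and C1QA by -0.40, and none of the 5 passed, with limma adjusted p from 0.222 for C1QA to 0.938 for the second C1QB element. CD59, a membrane inhibitor of the terminal complex, differed by 0.00 with SE 0.17. Macrophage-associated members thus held both the larger falls, at CD5L and CD14, and differences near 0, at C1QB. No test set these genes against each other.

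Of 5 elements for plasma carriers and secreted factors, 2 fell. SELENOP, the selenium carrier of plasma, had 2.87, 4.02 and 4.52 on day -14, against 4.60, 4.89 and 5.11 on day -65. Its ranges lay apart, and it fell by 0.94 (SE 0.18, limma adjusted p 0.000118) in 7 of 7 cows. RBP4 averaged 5.93 ± 0.42 on day -14 (SD, n = 8) and 6.55 ± 0.25 on day -65 (SD, n = 7), with a difference of -0.63 and limma adjusted p 0.00395. CP lay at 5.92, 6.34 and 7.0 on day -14, against 4.99, 5.88 and 6.60 on day -65, higher in 6 of 7 cows, but its difference of 0.54 (SE 0.27) did not pass at an adjusted p of 0.118. The IGF-binding protein IGFBP4 differed by 0.09 and -0.13 at its 2 elements, neither passing. Its course in each feeding level is given further on.

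The enzymes fell into 3 groups. In lipid metabolism 1 of 9 elements fell, with a median of -0.13. That was ACADS, the short-chain acyl-CoA dehydrogenase of mitochondria, which had 2.02, 2.96 and 3.75 on day -14, against 3.12, 3.67 and 4.22 on day -65. Its difference was -0.82 with SE 0.21 and limma adjusted p 0.00332, lower in 6 of 7 cows, with some overlap. ACSL1, which activates long-chain fatty acids, differed by -0.22, the peroxisomal thiolase ACAA1 by 0.16, the phytanic acid hydroxylase PHYH by -0.03 and SCP2, a sterol carrier and peroxisomal thiolase, by -0.33. ETFDH (-0.13), ECI2 (-0.15) and HSD17B10 (0.07), which act in fatty acid oxidation, and EBP (0.29), which acts in sterol synthesis, did not pass either.

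Among 8 elements for oxidation, conjugation and repair enzymes, 2 fell. The thiol methyltransferase TMT1B fell by 0.90 (limma adjusted p 0.00165), with 4.60, 5.16 and 6.23 on day -14, against 5.64, 6.33 and 6.94 on day -65. The second element of the flavin monooxygenase FMO5 fell by 0.79 (limma adjusted p 0.00398) in 7 of 7 cows, while its first element differed by -0.50 and did not pass. The aldehyde oxidase AOX1 (-0.43), the aldehyde dehydrogenase ALDH2 (-0.07), the electron carrier CYB5A (0.68, adjusted p 0.11), MSRA (-0.10), which repairs oxidised methionine, and LOC327709 (-0.59), listed with GSTM1 as a synonym, did not pass.

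Among 6 elements for amino acid, methyl, sulfur, purine and polyol metabolism, 3 fell. The rhodanese TST fell by 0.62 and 0.53 at its elements (limma adjusted p 0.0236 and 0.0374). URAD, which acts in the breakdown of uric acid, fell by 0.68 (adjusted p 0.0291) over both feeding levels together. AHCY, which hydrolyses S-adenosylhomocysteine, GAMT, which makes creatine, and the sorbitol dehydrogenase SORD differed by -0.22, -0.37 and 0.26 and did not pass. Of 4 proteases and inhibitors, the lysosomal protease LGMN (-0.70, limma adjusted p 0.00296) and LOC338050 (-0.70, 0.00495) fell, while DPP4 (-0.30) and SPINT1 (0.17) did not pass. LOC338050 lies beside SERPINA3 genes in RefSeq gene order and lists PCI as a synonym.

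Of the other 8 elements, 6 fell. UNC13D, a factor in the release of secretory granules, had 5.66, 6.0 and 7.12 on day -14, against 6.55, 7.31 and 8.24 on day -65, with overlap, and fell by 1.16 (SE 0.20, limma adjusted p 2.21e-05) in 5 of 7 cows. The zinc finger gene ZMAT1 had 1.38, 1.79 and 3.34 on day -14, against 2.41, 3.36 and 3.86 on day -65, and fell by 1.18 (SE 0.24, limma adjusted p 0.000221). GADD45A, which is induced by DNA damage and growth arrest, fell by 0.86, LOC515150 by 1.03 and LOC514257 by 0.70. LOC515150 lies between C4BPA and CD55 in RefSeq gene order. The transcriptional coactivator WWTR1 (TAZ) differed by 0.59 (adjusted p 0.0753) and COLGALT2 by 0.36, both above 0 and not past the threshold.

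**Figure D2:**
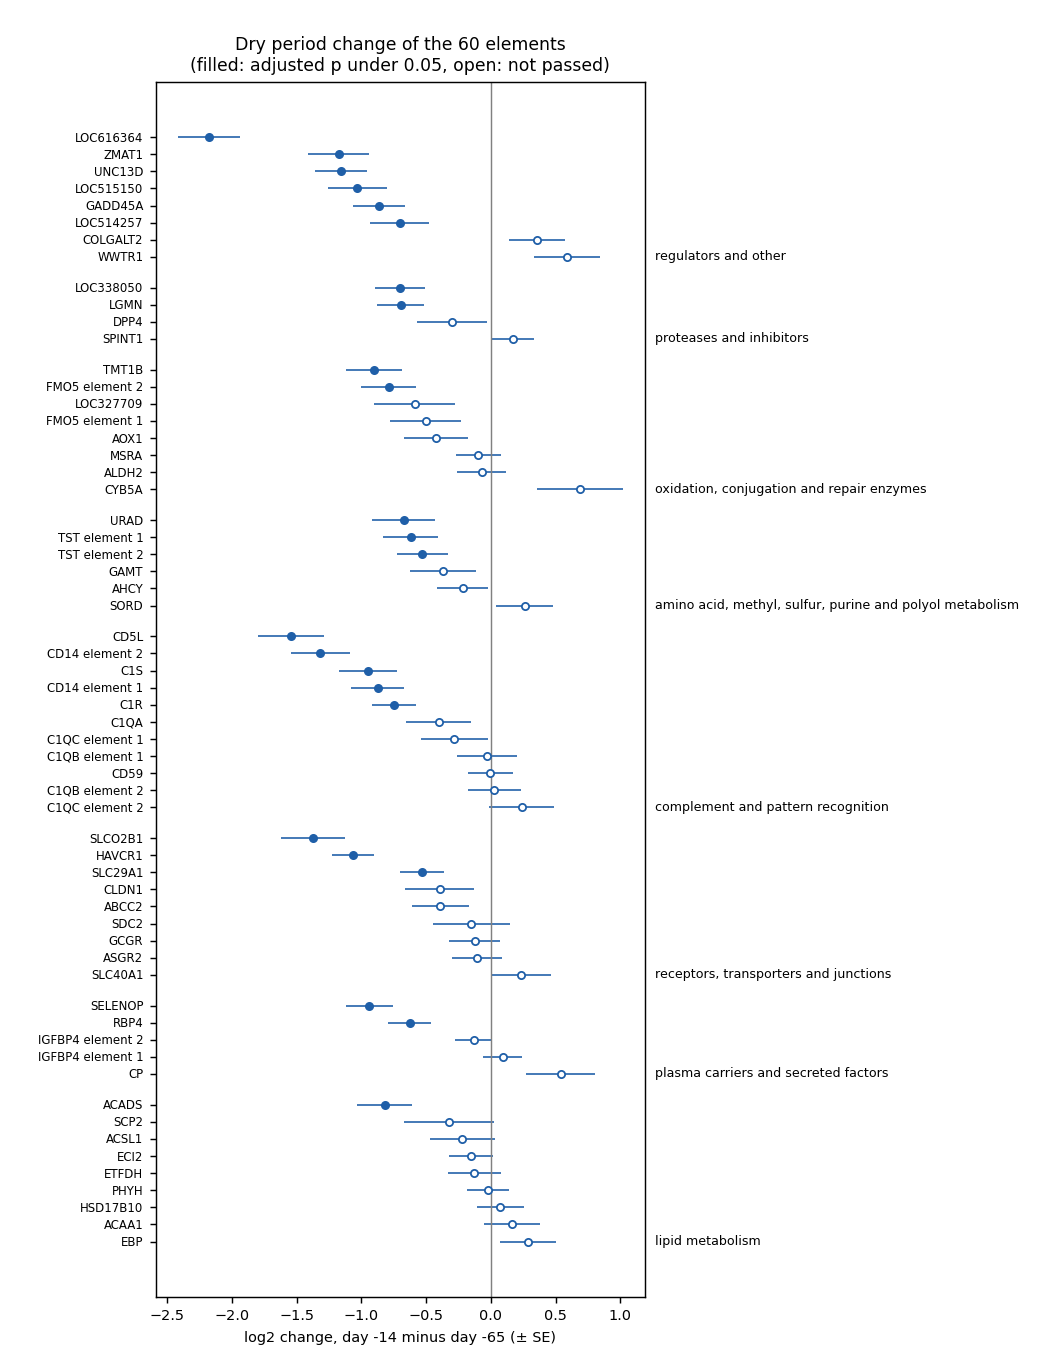
Log2 difference of day -14 minus day -65 (horizontal axis, ± SE) for each of the 60 elements, grouped by role down the page, with filled points for a limma adjusted p under 0.05. All 24 filled points lie below 0, from -2.18 for LOC616364 to -0.53 for the second TST element, the C1QB elements lie near 0 (-0.03 and 0.03), and ACADS (-0.82) is the single filled point among the lipid elements.

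Liver genes listed by role were also compared beyond the members, on day -14 against day -65. Over all tested elements, 14.1% were lower and 17.8% higher. Among the genes listed for xenobiotic, steroid, alcohol and retinol metabolism, 4 of 8 elements fell, 1 of 4 that were members and 3 of 4 that were not. In the list for lipid, bile acid and ketone metabolism 1 of 10 fell, which was 1 of 7 that were not members. In that for amino acid and nitrogen metabolism, which held no member, 2 of 8 fell and 1 rose, and in that for carbohydrate metabolism 1 of 8 fell and 1 rose, both among the 7 that were not members. In the list for iron, copper, heme and redox 1 of 10 fell, the member SELENOP, and in that for hepatocyte transcription factors, receptors and transporters 2 of 5 fell, 1 of them the member SLCO2B1. In the list for plasma carriers and apolipoproteins 2 of 7 fell, both members. The complement and acute phase list held C1R and C1S alone, and the coagulation list held PROS1, the anticoagulant protein S, which differed by 0.23 and did not pass.

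Elements at the opposite extreme moved the other way. The 34 elements with a mean below -3 on days -30 and 28, such as VIM, COL1A2 and TIMP1, had a median difference of 0.69 on day -14 against day -65, and 19 rose while none fell. In ad libitum cows both ends lay closer to 0 on day -14, with the low elements averaging -3.12 on day -14 and -3.91 on day -65. In restricted cows the low elements averaged -3.45 on day -14 and -3.65 on day -65, but the member median lay further from 0 on day -14, as given above. Array properties moved with the same days. The correlation across all elements between the 2 dye orientations of a cow-day averaged 0.485 on days -14, 1 and 14, against 0.702 on days -65 and 49. Over the 60 members alone it averaged 0.904 on days -14, 1 and 14, against 0.939 on days -65 and 49. With this correlation as a covariate, 18 members passed as lower and 1, EBP, as higher, and the members' median difference was -0.30, beside 24.4% of all tested elements that passed. With the median of the 34 low elements as a covariate, a fit chosen after seeing the data, the members' median difference was 0.03, with 12 lower and 1, COLGALT2, higher, beside 12.6% of all tested elements that passed.

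The call also depended on centring and scaling. Without centring, the median over all elements was 0.54 and 98.4% of called elements were higher, against 55.7% with centring. The members' median was then 0.11, which is 0.42 below that of all elements. Of the members, 10 passed as higher and 7 as lower, beside 46.6% of all tested elements higher and 0.757% lower. With arrays scaled to 1 spread, 39 members fell and none rose, beside 13.4% of all tested elements lower and 19.7% higher. All 24 elements that fell kept a difference below 0 under both. HAVCR1, UNC13D, LOC616364, CD5L, SLCO2B1, ZMAT1 and the second CD14 element passed in every setting tried.

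**Figure D3:**
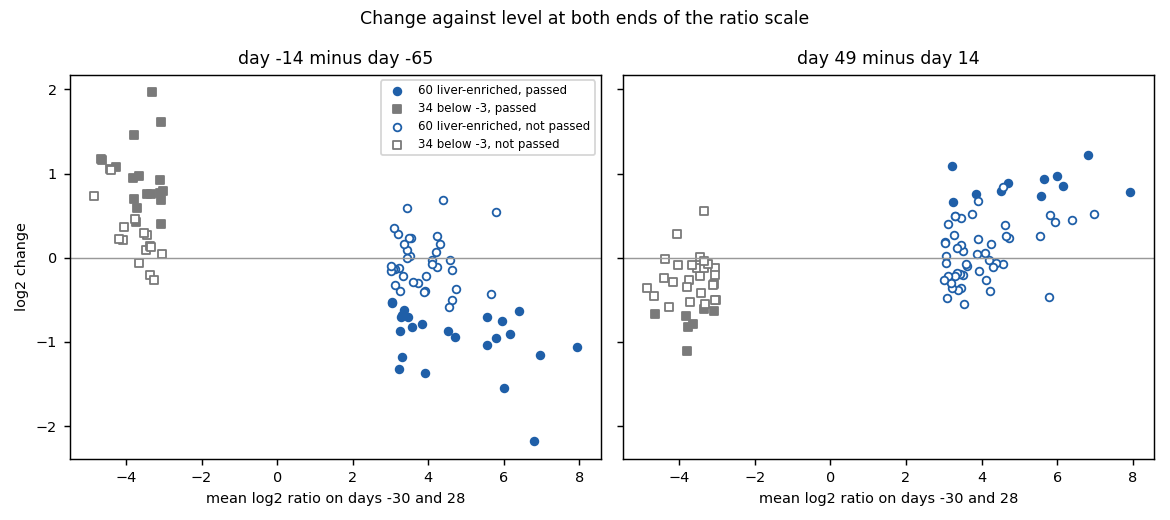
Log2 change (vertical axis; left panel day -14 minus day -65, right panel day 49 minus day 14) against mean log2 ratio on days -30 and 28 (horizontal axis) for the 60 members (circles) and the 34 elements below -3 (squares), filled where the limma adjusted p was under 0.05. In the left panel the members lie mostly below 0 (median -0.38) and the low elements above it (median 0.69), and in the right panel the signs are the other way (medians 0.17 and -0.32).

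**Figure D4:**
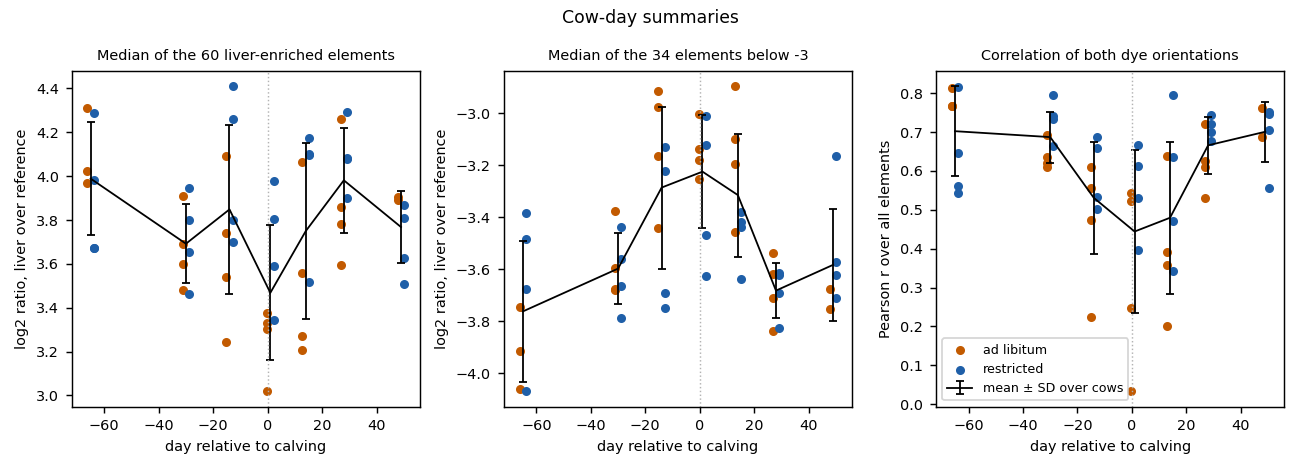
Median log2 ratio of the 60 members, median of the 34 elements below -3, and correlation of the 2 dye orientations (vertical axes of the 3 panels) by day relative to calving, with a point per cow and the mean ± SD per day. On days -14, 1 and 14 the member median averaged 3.69 against 3.89 on days -65 and 49, the low elements -3.27 against -3.68, and the correlation 0.485 against 0.702.

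Markers of other liver cells moved as well over the same interval, in which 14.1% of all tested elements fell and 17.8% rose. Of 8 endothelial elements 5 fell and 1 rose, and the median over them ran from 0.50 to 1.67 across cows on day -14, against 1.41 to 2.11 on day -65. Of 15 macrophage elements, 8 of them members, 5 fell and 2 rose, and their median ran from 1.99 to 2.84, against 2.67 to 3.63. The macrophage genes AIF1 (1.45) and CD74 (0.80) rose while CD5L, CD14 and VSIG4 fell. Of 9 stellate and fibroblast elements 5 rose and none fell, with medians from -1.45 to -0.38 on day -14, against -2.07 to -1.63 on day -65. Of the 3 hepatocyte elements 1, RBP4, fell. The part of these markers in the members' falls was not tested, and no erythroid marker was on the array.

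Around calving itself few members passed the test. On day 1 against day -14, 1 member, LGMN, fell and none rose, beside 0.0992% of all tested elements that fell. LGMN had 1.48, 1.85 and 2.97 on day 1, against 1.99, 2.91 and 3.24 on day -14, with overlap. The difference was -0.72 (SE 0.17, limma adjusted p 0.0387), lower in 7 of 8 cows. The members' median difference was -0.35, against 0.00 over all elements, 51 lay below 0 and 26 had an unadjusted p under 0.05. CP averaged 6.90 ± 0.59 on day 1 and 6.46 ± 0.41 on day -14 (SD, n = 8 each), higher in 7 of 8 cows, with a difference of 0.44 that did not pass (limma adjusted p 0.592). The LGMN call was lost without centring, with scaling, in the arrays with liver in Cy3, with the orientation correlation as a covariate and without any 1 of 6 cows (6886, 6952, 7045, 7050, 7105 and 7161).

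On day 14 against day 1, 2 members rose, LGMN and SLCO2B1, and none fell, beside 0.707% of all tested elements that passed, 0.0992% higher and 0.608% lower. LGMN averaged 2.86 ± 0.40 on day 14 and 1.98 ± 0.45 on day 1 (SD, n = 8 each), with a difference of 0.88 (SE 0.17, limma adjusted p 0.00516), higher in 7 of 8 cows. SLCO2B1 had 1.77, 3.28 and 4.23 on day 14, against 1.04, 2.40 and 2.68 on day 1. Its ranges overlapped, and the difference was 0.96 (SE 0.24, limma adjusted p 0.033), higher in 7 of 8 cows. The median difference was 0.38, against -0.02 over all elements, with 50 members above 0 and 29 at an unadjusted p under 0.05. Without centring, with scaling, with liver in Cy3 only, and without cow 7045 or 7161, none passed. Without cow 6886, 6952, 7105 or 7187, 1 passed, and without cow 6877, 3 passed as higher and CP as lower.

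The next comparison covered lactation up to day 49. Of the 60 elements, 11 rose on day 49 against day 14 and none fell, beside 13.3% of all tested elements that passed, 3.73% higher and 9.61% lower. The members' median was 0.17, against -0.05 over all elements, and 20 had an unadjusted p under 0.05. Over cows with both days the members' median change was 0.24 in 2 ad libitum cows and -0.18 in 4 restricted cows, in which 40 of the 60 members had a mean change below 0. By role, 3 of the 11 were in complement and pattern recognition, 3 in oxidation, conjugation and repair, 3 among the regulators and other genes, and 1 each in the plasma carriers and the receptors. None of the lipid enzymes or proteases passed.

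LOC616364 had 6.43, 6.70 and 7.07 on day 49, against 3.96, 5.37 and 7.16 on day 14. The day 49 values lay inside the range of day 14, whose spread was wide. It averaged 6.71 ± 0.23 on day 49 (SD, n = 6) and 5.55 ± 1.11 on day 14 (SD, n = 8), a difference of 1.22 with SE 0.26 and limma adjusted p 0.00097, higher in 4 of 6 cows. Ad libitum cows 6886 and 7050, at 3.96 and 4.61 on day 14, had no value on day 49. Within the 6 cows with both days the mean change was 0.74, with 1.59 in the 2 ad libitum cows and 0.31 in the 4 restricted cows, of which 2 were higher. SELENOP was the single member whose ranges lay apart, with 4.71, 4.95 and 5.15 on day 49, against 3.57, 4.00 and 4.63 on day 14. It rose by 0.88 (SE 0.19, limma adjusted p 0.00149) in 6 of 6 cows.

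The second CD14 element had 2.50, 2.77 and 3.22 on day 49, against 0.69, 1.77 and 3.58 on day 14, with overlap, and rose by 1.10 (SE 0.25, limma adjusted p 0.00184). HAVCR1 rose by 0.78, CD5L by 0.97 and AOX1 by 0.93, with limma adjusted p of 0.00173, 0.0135 and 0.0156. AOX1 had 5.61, 5.72 and 6.03 on day 49, against 3.83, 4.99 and 5.88 on day 14. GADD45A (0.80), TMT1B (0.86), the second FMO5 element (0.76), the first CD14 element (0.67) and LOC515150 (0.74) also rose. Of the elements that rose here, 10 of 11 were among those that had fallen on day -14 against day -65, which is 10 of those 24. The same overlap over all tested elements was not counted, so it is not shown to be particular to the members. The 2 comparisons share no sample but the same cows.

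This rise depended on the cows and on the processing. In a fit of the 6 cows with both days, added after seeing the data, 6 members passed as higher and 3 as lower (IGFBP4, C1QC and ASGR2), beside 2.03% of tested elements higher and 10.1% lower, and the members' median was 0.01. LOC616364 (0.95), SELENOP (0.85) and the second CD14 element (0.91) passed there, while CD5L (0.77) and AOX1 (0.84) did not. For 3 of the 11 elements the fitted difference was over 1.5 times the mean change within these cows. The members' median was also -0.05 with liver in Cy5 only, 0.02 with the orientation correlation as a covariate and 0.00 with the low elements as one.

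With the orientation correlation as a covariate 6 members passed as higher and 4 as lower, beside 2.23% of tested elements higher and 10.9% lower. Without centring 2 passed as higher, beside 0.335% of tested elements. With liver in Cy5 only 1 passed as higher, beside 1.14%. Without cow 7161 the count was 5, beside 1.28% of tested elements higher. Without cow 7105 or 7187 it was 6, beside 1.37% and 0.940% higher. The 34 low elements again moved the other way, with a median of -0.32 and 7 lower, none higher. Endothelial markers rose for 3 of 8 elements, beside 3.73% of all tested elements. Their median ran from 1.55 to 1.93 across cows on day 49, against 0.58 to 1.52 on day 14.

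Between the last and the first day no member passed. On day 49 against day -65, limma called 0 of the 60 elements at the adjusted threshold, beside 0.062% of all tested elements (0.0496% higher and 0.0124% lower), and 9 members had an unadjusted p under 0.05. The smallest adjusted p was 0.477. The members' median difference was -0.25, against -0.02 over all elements. It had the other sign without centring (0.04, against 0.26 over all elements) and with arrays scaled to 1 spread (0.17). ACADS differed by -0.65 (SE 0.24), LOC616364 by -0.69 (SE 0.26) and SLC29A1 by -0.44, while AOX1 (0.33), CYB5A (0.30) and SCP2 (0.26) lay above 0.

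The first 3 comparisons of feeding levels were made on 1 value per cow, ad libitum minus restricted. Values are listed in the order of cows 6886, 7050, 7161 and 7187 for ad libitum and 6877, 6952, 7045 and 7105 for restricted feeding, and cow 7050 has no value on day -65. On day -14, limma called 0 of 60 members and 0% of the 8061 tested elements. An unadjusted p under 0.05 was reached by 26 members, given as a description only, and the smallest adjusted p was 0.385. The members' median difference was -0.52, against 0.00 over all elements. With arrays scaled to 1 spread it had the other sign, at 0.27. The median absolute deviation of the log2 ratios of all elements averaged 0.455 in ad libitum and 0.636 in restricted cows on day -14. The ranges of both feeding levels lay apart for 12 members, among them ASGR2, SLCO2B1, UNC13D, URAD and both IGFBP4 elements. How many of all tested elements lay apart in this way was not counted, so the 12 are given as a description only. In the fit of all cow-days with cow as a random block, 8 members passed as lower in ad libitum cows. Beside them, 6.17% of all tested elements passed, with 5.32% of the tested lower. That fit takes its spread from all 53 cow-days.

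The smallest p-values belonged to IGFBP4 and CD14. IGFBP4 differed by -1.01 (SE 0.24) and -0.87 (SE 0.21) at its elements. The first CD14 element was at 1.65, 2.22, 2.05 and 1.96 in ad libitum cows, against 2.77, 2.50, 2.83 and 2.84 in restricted cows. All ad libitum cows lay below all restricted cows in these 3 elements, and the CD14 difference was -0.76 (SE 0.20, limma adjusted p 0.385).

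Values on the side of higher ad libitum levels were found for SCP2 and FMO5. SCP2 was at 3.10, 3.39, 3.77 and 3.24 in ad libitum cows, against 1.70, 2.75, 3.65 and 1.25 in restricted cows on day -14. The groups overlapped through 1 restricted cow, and the difference of 1.04 had an SE of 0.46 and a limma adjusted p of 0.467. FMO5 differed by 0.70 and 0.48 at its elements, with adjusted p of 0.531 and 0.492.

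After calving, the difference of ad libitum minus restricted cows in the mean of days 1 and 14 was below 0 for all 60 members, and for 51 of 60 with arrays scaled to 1 spread. None passed, by limma, beside 10.2% of all tested elements that were higher and 0.708% that were lower in ad libitum cows. The median difference was -0.44, against -0.11 over all elements. Without adjustment, 20 members had a p under 0.05. With arrays scaled to 1 spread the median was -0.21, and 4 members had an unadjusted p under 0.05. The arrays' own spread, the median absolute deviation of the log2 ratios of all elements, differed in the same cow-days. It averaged 0.385 on day 1 and 0.426 on day 14 in ad libitum cows, against 0.536 on day 1 and 0.595 on day 14 in restricted cows. CD5L was at 4.37, 4.21, 4.88 and 4.61 in ad libitum cows, against 5.36, 5.43, 5.03 and 4.85 in restricted cows. The groups overlapped slightly, and the difference of -0.65 (SE 0.19) had an adjusted p of 0.056.

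LOC338050 was at 4.18, 4.71, 4.68 and 4.95 in ad libitum cows, against 5.03, 6.07, 5.34 and 5.19 in restricted cows. It was the single member whose feeding levels did not overlap, with a difference of -0.78 (SE 0.24, limma adjusted p 0.0726). LOC616364 differed by -1.12 (SE 0.36, limma adjusted p 0.0824), with 4.69 ± 0.42 in ad libitum and 5.80 ± 0.78 in restricted cows (SD, n = 4 each). In the fit of all cow-days with cow as a random block, 14 members passed as lower in ad libitum cows. Beside them, 19.2% of all tested elements passed, with 5.77% of the tested lower. At its within-cow correlation of 0.0175, that fit takes days 1 and 14 of a cow as nearly separate samples. The cows remain 4 per feeding level. The 2 dye orientations correlated at 0.0332 to 0.638 in ad libitum cow-days of days 1 and 14, against 0.343 to 0.796 in restricted ones. The part of this in the members' differences was not tested.

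The feeding levels were also compared in their change across calving, as the mean of days 1 and 14 minus day -14. Limma called 0 of 60 members and 0% of 8023 elements, with 9 members at an unadjusted p under 0.05 and a smallest adjusted p of 0.634. LOC514257 changed by 0.66, 0.18, -0.34 and 0.10 in ad libitum cows, against -0.63, -0.71, -0.94 and -0.60 in restricted cows. The ranges lay apart, and the difference was 0.87 (SE 0.25). Both IGFBP4 elements (0.73 at the first) and ACAA1 (0.79) also lay apart between the feeding levels, which with LOC514257 made 4 members. HAVCR1 (-0.66), the second FMO5 element (-0.92) and SCP2 (-1.75, SE 0.70) had differences below 0 and overlapped.

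A comparison added after seeing the data asked whether the feeding levels differed in their change over the dry period, day -14 minus day -65. It was tested in the fit of all cow-days, in which limma called 5 of 60 members, all lower in ad libitum minus restricted cows, beside 1.5% of all tested elements that passed, with 1.31% of the tested lower. The members' median was -0.75, against 0.04 over all elements. Before adjustment, 27 had a p under 0.05. With arrays scaled to 1 spread the median was 0.47 and none passed. The arrays' own spread averaged 0.455 on day -14 and 0.521 on day -65 in ad libitum cows. In restricted cows it averaged 0.636 on day -14 and 0.469 on day -65. The part of this spread in the members' differences was not tested. The fit uses every cow-day of both days, so its differences need not equal those of the 7 cows with both. With 1 value per cow, an alternative also added after seeing the data, limma called 0 of 60 members and 0 of 8022 elements. There 22 members had an unadjusted p under 0.05, the smallest adjusted p was 0.598, and the members' median was -0.68. The 5 calls therefore rest on the fit of all cow-days, and the values of these members are given by cow.

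Both member elements of IGFBP4 were among the 5. On day -14 the first was at 2.79, 2.77, 3.63 and 3.44 in ad libitum cows, against 4.26, 4.00, 4.11 and 4.33 in restricted cows. On day -65 it was at 3.93, 3.66 and 3.75 in ad libitum cows, against 3.46, 3.62, 2.88 and 3.53 in restricted cows. Ad libitum cows thus lay below restricted ones on day -14 and above them on day -65, without overlap on either day. The gap on day -65, the first day of the dry period, enters the difference in change as well.

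The change of the first IGFBP4 element was -1.14, -0.02 and -0.32 in ad libitum cows, against 0.79, 0.38, 1.23 and 0.79 in restricted cows. All 3 ad libitum cows lay below 0 and all 4 restricted cows above it. The difference in change was -1.42 (SE 0.31, limma adjusted p 0.0114). The second element changed by -1.12, -0.44 and -0.37 in ad libitum cows, against 0.30, 0.50, 0.59 and 0.43 in restricted cows, with a difference of -1.18 (SE 0.28, limma adjusted p 0.0218). A further IGFBP4 element, which is not a member (0.49 on days -30 and 28), differed by -0.46 (SE 0.25, limma adjusted p 0.313).

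**Figure D5:**
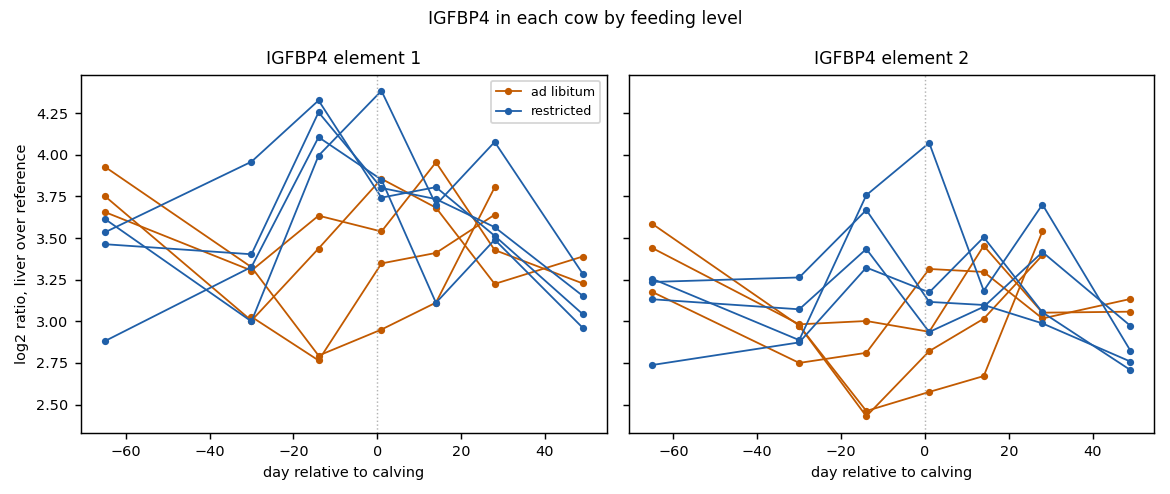
Log2 ratio of liver over the tissue mixture (vertical axis) by day relative to calving (horizontal axis) for the 2 member elements of IGFBP4, with a line per cow (orange ad libitum, blue restricted). On day -14 the 4 ad libitum cows lie at 2.77 to 3.63 at the first element, below the 4 restricted cows at 4.00 to 4.33, and the lines mix again after calving.

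On days 1 and 14 the feeding levels overlapped again at both elements, with differences of -0.28 and -0.26 that did not pass. The dry-period difference of the first element was -0.31 with arrays scaled to 1 spread and -0.73 without the cow-days whose orientations correlated under 0.6, and passed in neither. The last setting left 1 ad libitum and 2 restricted cows on day -14, with the lone cow assumed to vary like the other groups, so its missed call says little. The element also lost its call without centring, with liver in Cy3 only, with the orientation correlation as a covariate, and without cow 6886, 7045, 7050 or 7105. Orientations correlated at 0.225 to 0.611 in ad libitum cow-days of day -14, against 0.502 to 0.687 in restricted ones. The part of this in the IGFBP4 values was not tested.

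URAD showed the largest difference in change among the members called. It changed by -2.75, -1.32 and -1.72 in ad libitum cows, against -0.59, 2.37, 0.86 and -0.22 in restricted cows. The ranges lay apart, and the difference was -2.56 (SE 0.48, limma adjusted p 0.00836). On day -14 it was at 2.21, 2.41, 2.56 and 2.82 in ad libitum cows, against 2.86, 3.62, 3.21 and 3.27 in restricted cows. On day -65, the start of the dry period, it was at 4.96, 3.87 and 4.53 in ad libitum cows, against 3.45, 1.25, 2.36 and 3.49 in restricted cows. The feeding levels thus lay apart on both days, with ad libitum cows lower on day -14 and higher on day -65. For URAD too, the gap at the start of the dry period enters the difference in change.

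The second CD14 element changed by -2.05, -2.33 and -2.16 in ad libitum cows, against -1.34, -0.14, 0.03 and -0.01 in restricted cows, a difference of -1.91 (SE 0.46, limma adjusted p 0.0218). UNC13D changed by -2.58, -1.61 and -1.67 in ad libitum cows, against -1.09, 0.17, 0.27 and -0.74 in restricted cows, a difference of -1.62 (SE 0.40, limma adjusted p 0.0246). In both, every ad libitum cow lay below every restricted cow. HAVCR1 did not pass and changed by -1.10 ± 0.42 in ad libitum cows (SD, n = 3) and -1.07 ± 0.72 in restricted cows (SD, n = 4), a difference of 0.01 with SE 0.32. All 5 calls were lost without centring, with scaling, with liver in Cy3 only, and without cow 6886. With liver in Cy5 only 16 members passed, all lower, beside 3.77% of tested elements lower. With the low elements as a covariate 9 passed as lower and 2, SCP2 and the first FMO5 element, as higher, beside 17.2% of all tested elements that passed. Without cow 6877, 6952 or 7187 the counts were 20, 9 and 3, all lower, beside 6.67%, 1.76% and 0.602% of tested elements lower. Without cow 7045, 7050 or 7105, 1 passed.

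Genes with 2 member elements allowed a check of the values. Over the 53 cow-days the first element minus the second was 0.59 ± 0.29 for C1QB, -0.07 ± 0.36 for C1QC, 0.18 ± 0.41 for CD14, 0.92 ± 0.40 for FMO5, 0.40 ± 0.22 for IGFBP4 and 0.38 ± 0.26 for TST (SD, n = 53). The elements of CD14 and TST both fell on day -14 against day -65, and those of C1QB, C1QC and IGFBP4 both did not pass. For FMO5 the elements parted, with 1 past the threshold and 1 not.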

How the data were processed

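Liver RNA of 53 cow-days was hybridised against a pool of other tissues, with no liver in it, on 106 2-colour arrays with 2 spots per element. Per the labels, slides were read on a Scanarray 4000 and quantified in GenePix 4.0. Which background correction, filter or normalization followed is not given in the sources used here. What the authors deposited are log2 ratios of Cy5 over Cy3, whose direction follows the dyes in the labels and whose base was read from an excess of values at whole numbers. Array medians ran from -1.69 to 1.80, and 1.23% of spots had no value. The median correlation of duplicate spots was 0.900. On 2 arrays the source text names the opposite dye from title and label, which were used. Precision is limited by the number of arrays and cows.

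Values were turned to liver over mixture, centred on each array's median and averaged over spots and over the dye pair, with Python 3.11.15, numpy 2.4.6 and pandas 2.3.3. R 4.3.3 with limma 3.58.1 (statmod 1.5.0 for the block) fitted 14 feeding-by-day means with cow as a random block (within-cow correlation 0.0175). Cow numbers in the labels pair samples across days. The 3 planned feeding comparisons used 1 value per cow, and the one over the dry period, added later, the fit of all cow-days. All tests are two-sided, and p-values were adjusted by Benjamini-Hochberg over every element tested, that is 8061 elements with at least 2 cows per group, and were checked on simulated data. The cows are separate animals. Missing values were not imputed.

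Symbols came from the platform annotation, updated through RefSeq's gene table (ARS-UCD2.0), with 5598 elements holding 1 symbol, 95 several and 2515 none. Of the 5598, 5591 were found there. No coordinates or sequences are given, since the array annotation names no build. Members and lists were chosen with earlier results of these data known. Genes were named by rule, as the 10 highest members, up to 5 per direction among those passing a comparison or 3 where none passed, up to 4 of each role, those nearest the threshold, and all elements of genes with 2. Genes beyond it are given as single values to account for every member. Alternatives covered centring, array spread, single dye orientations, the block, array agreement, complete elements and leaving out each cow. The diet comparison over the dry period, its form with 1 value per cow, the cows with both days 14 and 49, the members from 3 to 5 and the covariate from the 34 low elements were added after seeing the data.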

Additional observations from a re-analysis of the deposited data

Results flagged for a closer look

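Values were compared within each of the 7 days for the 28 member elements chosen by the naming rule and for the members' median. Of these 203 sets, 11 held a cow far from the nearest other cow of the same day. The gap was judged by Dixon's 95% critical value, which about 1 in 20 sets passes by chance. Restricted cow 6952 accounts for 4 of them. On day 1 it was highest for C1R at 6.09, against 5.22 in the next cow, and for LOC338050 at 6.14, against 4.82. On day 14 it was highest for UNC13D at 7.93, against 6.58 in the next cow, and for ZMAT1 at 4.28, against 2.60.

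The other 7 were spread over cows and days. HAVCR1 was at 8.83 in ad libitum cow 6886 on day -65, next to 8.26. The first IGFBP4 element was at 3.96 in restricted cow 7105 on day -30, next to 3.40. On day 1, CD5L was at 5.34 in restricted cow 6877, next to 4.74, URAD was lowest at 1.68 in ad libitum cow 6886, next to 2.52, and LGMN was at 2.97 in ad libitum cow 7187, next to 2.14. On day 28, UNC13D was lowest at 6.27 in ad libitum cow 7187, next to 6.98, and CYB5A was lowest at 3.55 in restricted cow 7105, next to 4.63.

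The mean change of IGFBP4 on day -14 against day -65 had opposite signs in the feeding levels. Over cows with both days, its first element changed by -0.49 on average in ad libitum cows and 0.80 in restricted cows, a difference of -1.29, and its second by -0.64 and 0.46, a difference of -1.10. The test of this difference is given above, and it was lost with 1 value per cow (limma adjusted p 0.598 at both elements) and under the settings named there.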

How the results depend on the processing

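Counts of members called moved with the setting. On day -14 against day -65, 24 were called, against 39 with arrays scaled to 1 spread, 14 without cow-days whose orientations correlated under 0.6, 13 with the median of the 34 low elements as a covariate, and 14 among members from 3 to 5 alone. Leaving out each cow gave 20 to 25. On day 1 against day -14 the count was 1, and 0 without centring, with scaling, with liver in Cy3 only and with the orientation covariate, with 0 to 2 on leaving out each cow. On day 14 against day 1 it was 2, and 0 without centring, with scaling and with Cy3 only, with 0 to 4 on leaving out each cow. On day 49 against day 14 it was 11, against 2 without centring, 33 with scaling, 1 with Cy5 only, 6 with the low-element covariate and 5 among members from 3 to 5, and 9 (6 higher, 3 lower) in cows with both days, with 5 to 15 on leaving out each cow. For the dry-period change between feeding levels it was 5, against 0 without centring, with scaling, with Cy3 only, without low-agreement cow-days and with 1 value per cow, 1 with the orientation covariate, 11 with the low-element covariate (9 lower, 2 higher) and 16 with Cy5 only, with 0 to 20 on leaving out each cow. UNC13D turned to 0.29 in that comparison with scaling. The cause was not tested.

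Without the replicate block the day comparisons gave the same counts, 24, 1, 2, 11 and 0, and the dry-period comparison 5. With the replicate block, in the fit of all cow-days, the feeding comparison called 8 members on day -14 and 14 on days 1 and 14, against 0 each, and 0 across calving. On days 1 and 14 the count was 3 without centring, 1 with scaling, 1 with Cy5 only and 0 to 3 on leaving out each cow. On day 49 against day -65 it was 0 in every setting. Over all elements on day -14 against day -65, 2569 were called, and 1964 with the orientation covariate, 1252 without low-agreement cow-days and 1015 with the low-element covariate, with 66.2%, 66.5% and 58.5% of them higher. The low-agreement setting left 1 ad libitum and 2 restricted cows on day -14, so its counts of 0 carry little weight, and it could not be fitted where it emptied a group. Of the values of single members and the members' medians, 633 kept their sign and their side of the threshold (for medians, within the members' median SE), 92 lost and 11 gained the call, 21 medians moved beyond that and the value of 1 member, UNC13D, reversed. The members' median had the other sign in 14 of 142 settings. These were day -14 against day -65 without centring (0.11) and with the low-element covariate (0.03), day 49 against day 14 with Cy5 only (-0.05) and with the low-element covariate (0.00), day 49 against day -65 without centring (0.04) and with scaling (0.17), and, with scaling, the feeding difference on day -14 (0.27) and in the dry-period change (0.47). The other 6 concerned the change across calving, whose median was 0.02, with -0.55 under scaling, -0.01 with Cy3 only and 4 on leaving out a cow.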
